A study of Mus musculus with 6 samples.

Results

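MAPK phosphatases and Sprouty-type inhibitors are genes that dampen the signalling cascades by which they are induced. The set described here has 10 names, Dusp1, Dusp2, Dusp4, Dusp5, Dusp6, Dusp10, Dusp16, Spry1, Spry2 and Spred1, looked up by exact gene name among the non-control probes of 6 mouse arrays. Of these, 9 were measured, by 16 probes in all, and Dusp5 had no probe under its name. All 9 passed the filter on dim signal, through 13 of the 16 probes, and they stand among 16389 genes tested.

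Liver CD8+ T cells were sorted from female mice on the C57BL/6 background, 13 to 14 weeks old, and their RNA was measured. Every mouse carried dnTGFβRII, a transgenic receptor II for TGF-beta that acts as a dominant negative, whose promoter the labels do not name. The group TG carried this transgene alone (3 arrays), and the group TGC3 also lacked the chemokine receptor CXCR3 (dnTGFβRII CXCR3-/-, 3 arrays). The comparison thus asks what differs in transgenic liver CD8+ T cells when CXCR3 is missing, and it has no group without the transgene. Nothing in the labels says that the arrays of a group came from separate mice, so the p-values describe only how far these samples spread.

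Signals from the T cell receptor and from cytokines reach the nucleus partly through the MAP kinases ERK, JNK and p38. Dual-specificity phosphatases (the Dusp genes here) remove the phosphates that activate a MAP kinase, and several are induced soon after stimulation. Sprouty and Spred proteins act higher up, where they restrain RAS and RAF, and Spred1 does so by bringing the RAS inhibitor neurofibromin to the membrane.

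On each array 58.9% to 63.8% of probes lay well above background. Cxcr3 read between -4.64 and -4.21 on the TGC3 arrays and between 6.85 and 6.94 on the TG arrays, as the log2 signal minus the array's 75th percentile (scaled log2 below), which fits the labels. Arrays correlated across genes, which are not independent replicates, at 0.993 to 0.995 within a group and 0.983 to 0.986 between groups. Slide 1 held all TGC3 arrays and slide 2 all TG arrays, so slide and genotype cannot be told apart. The T cell markers Cd8a and Cd8b1 were well above background on every array, while the hepatocyte markers Alb, Apoa1 and Ttr did not pass the filter. Of 12 neutrophil markers 4 were tested, of which S100a8 and S100a9 were higher in TGC3 and Retnlg and Mpo did not pass. S100a8 was well above background on 3 TGC3 arrays and 0 TG arrays, and S100a9 on 3 and 1. Both thus passed the filter through the group where they were bright, and their calls are a description. The 4 markers summed to 969 to 4790 intensity units on the TGC3 arrays, highest on TGC3 2, and to 66 to 103 on the TG arrays. Elane, Camp, Ngp, Ltf, Cxcr2, Csf3r and Mmp8, also neutrophil genes, did not pass the filter. In bulk samples, fewer cells of a type and less RNA per cell cannot be told apart.

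Spred1 and Dusp1 were the members that changed past the threshold (limma, p under 0.05 after Benjamini-Hochberg adjustment over every gene tested), and they moved in opposite directions. Their upstream sequences are shown for that contrast, as the 250 bases before the annotated start, 5′ to 3′ on the gene's strand, from RefSeq (GRCm38.p6). The Dusp1 stretch is chr17:26508473-26508722 on the minus strand and the Spred1 stretch chr2:117120821-117121070 on the plus strand. Capitals mark the cAMP response element TGACGTCA and its core TGACG, searched on both strands.
Dusp1: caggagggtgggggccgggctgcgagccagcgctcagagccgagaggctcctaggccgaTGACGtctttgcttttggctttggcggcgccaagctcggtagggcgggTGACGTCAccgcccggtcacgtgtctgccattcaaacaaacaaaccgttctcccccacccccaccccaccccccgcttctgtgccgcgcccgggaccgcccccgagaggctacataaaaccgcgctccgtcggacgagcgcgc
Spred1: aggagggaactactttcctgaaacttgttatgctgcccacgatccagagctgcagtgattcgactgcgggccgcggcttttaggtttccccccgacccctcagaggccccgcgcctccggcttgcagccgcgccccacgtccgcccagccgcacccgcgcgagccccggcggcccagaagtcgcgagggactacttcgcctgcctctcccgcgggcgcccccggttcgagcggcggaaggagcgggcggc
The Dusp1 stretch held the full element, as did 1.55% of the 32851 promoters searched over the same window, and a separate TGACG, a core found in 17.8% of them. The Spred1 stretch held neither.

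Of the 9 members with an entry in the promoter table (Dusp4 is not in it), Dusp1 alone had the full element, and Dusp1, Dusp5 and Dusp16 had the core, which the full element contains. The E box CACGTG was present upstream of Dusp1 and Dusp2 (6.02% of all promoters), the CArG box upstream of Dusp5 (1.47%) and GGGCGG upstream of 7 of the 9 (32.7%). The AP-1 site TGANTCA and the letters TATAAA were in 0 of the 9 windows, beside 6.75% and 12.4% of all promoters. The 2 printed stretches are rich in G and C, at 68.4% for Dusp1 and 70.8% for Spred1, where the median promoter had 52.4%. A match describes letters and not a bound site.

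Among the probes, 3 sequences bear on how far a member can be read from more than 1 place in its gene. The first 2 were designed on the RefSeq transcript of Spred1, and each has 1 sense frame free of stop codons over its 60 bases. The last was designed on an Ensembl transcript of Dusp2 and ends in CAGGTGAGT (capitals), the letters of an exon end joined to the start of an intron as splice sites usually read, which 8 of 41174 probes on the array (0.0194%) hold.
Spred1 probe at chr2:116997721-116997780: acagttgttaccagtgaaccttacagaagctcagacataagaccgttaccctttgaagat
Spred1 probe at chr2:117003056-117003115: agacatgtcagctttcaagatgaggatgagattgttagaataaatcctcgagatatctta
Dusp2 probe at chr2:127162582-127162641: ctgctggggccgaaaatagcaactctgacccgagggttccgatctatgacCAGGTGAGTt
These positions are those of mm9 in the array files, and all 3 probes lie on the plus strand. Whether each falls in an exon, an intron or a UTR was not determined, since no mm9 annotation was used here.

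Of the 9 members, 1 was higher in TGC3 (Dusp1), 1 was lower (Spred1) and 7 did not pass. Over all genes tested, 16.6% were called higher and 9.45% lower, 26.0% in either direction, so that 2 of 9 is a share near that of the whole array. The median change of the members (TGC3 minus TG, log2) was -0.16, within a range of -0.70 to 0.64, and 4 of the 9 lay above 0. The median over all genes was -0.01. The groups did not overlap for 3 members, Dusp1, Spred1 and Spry1, beside 46.7% of all genes tested. Centring arrays on their median lowered the change of the median gene by 0.175 and gave 0 members higher and 3 lower, with Dusp10 and Dusp2 joining Spred1.

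**Figure D1:**
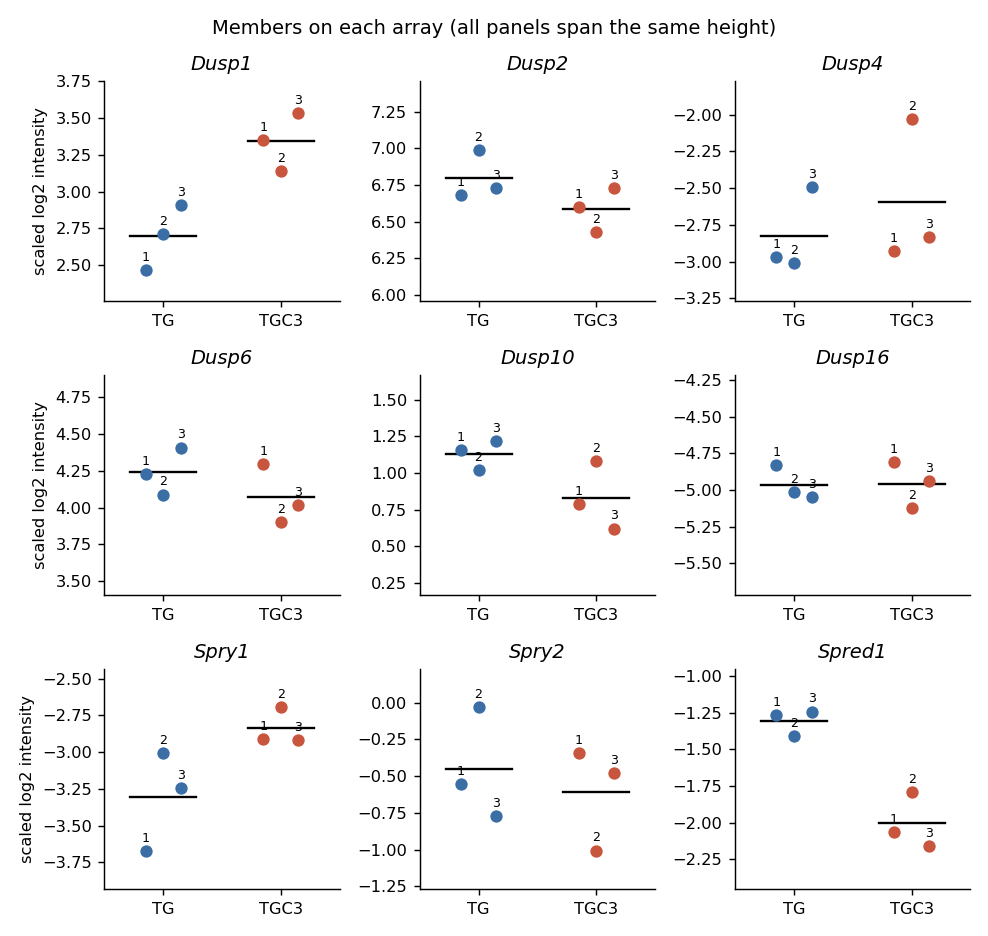
Scaled log2 intensity (log2 processed signal minus the array's 75th percentile) of the 9 measured members, each read by its brightest kept probe, with a point for each array numbered by replicate (TG blue, TGC3 red) and a line at the group mean; every panel spans the same height. The groups are apart for Dusp1 and Spry1 (TGC3 above TG) and for Spred1 (TGC3 below TG), and they overlap for the other members.

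Dusp1 encodes a nuclear phosphatase that acts mainly on p38 and JNK and is one of the immediate early genes. Its probe read 6056, 5374 and 7231 intensity units (processed signal before scaling, as for every member below) on the TGC3 arrays 1 to 3 and 3107, 3753 and 4662 on the TG arrays 1 to 3. Every TGC3 array lay above every TG array, with TGC3 2 and TG 3 the nearest to each other. In scaled log2 units the means were 3.34 ± 0.20 in TGC3 and 2.70 ± 0.22 in TG (SD, n = 3 each). Dusp1 rose by 0.64 ± 0.15 (SE, log2), or 1.56-fold, with a limma adjusted p of 0.0261 and a 95% interval of 0.28 to 1.01.

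The call of Dusp1 depended on single arrays, although its sign and much of its size did not. The change ran from 0.53 to 0.75 when an array was left out, and the limma adjusted p rose past the threshold without TGC3 1 (0.0709), TGC3 3 (0.0721), TG 1 (0.0668) or TG 2 (0.0731). Centring arrays on their median also ended the call, at a change of 0.47 and a limma adjusted p of 0.0629, as did testing all genes with no filter (limma adjusted p = 0.063). By mean signal Dusp1 fell in decile 9 of the genes tested, where 5% of genes were called higher, fewer than the 16.6% over all genes. The probe's mm9 position in the array files is chr17:26642526-26642536 on the minus strand, which covers 11 of its 60 bases.

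Dusp2 (also called PAC-1) encodes a nuclear phosphatase found chiefly in activated blood and immune cells. Its brightest probe, at chr2:127163930-127163989, read 57670, 52510 and 66210 units on the TGC3 arrays 1 to 3 and 57610, 72680 and 65930 on the TG arrays 1 to 3. The groups overlapped, and TGC3 2 was the lowest array. The fitted change was -0.21 ± 0.12 (limma adjusted p = 0.225, 95% interval -0.50 to 0.07), an interval that lies wholly below that of Dusp1. The probe printed above read 2871, 2322 and 3420 units on TGC3 and 2886, 3549 and 3033 on TG. Its own change was -0.21 ± 0.16 (limma adjusted p = 0.379 over 25103 probes), so both probes gave the same value.

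Dusp4, a nuclear phosphatase for ERK and JNK, was dim on every array. Its brightest probe, at chr8:35884806-35884865, read 78.0, 149 and 87.2 units on the TGC3 arrays 1 to 3 and 71.6, 71.0 and 110 on the TG arrays 1 to 3. TGC3 2 stood above the other 5 arrays and the groups overlapped. The change was 0.23 ± 0.27 (limma adjusted p = 0.571, 95% interval -0.43 to 0.89), and it was -0.06 without TGC3 2. The other Dusp4 probe, at chr8:35882045-35882104, read 89.1, 99.6 and 108 units on TGC3 and 56.2, 77.5 and 78.4 on TG. There every TGC3 array lay above every TG array, as for 44.3% of all probes tested, and the change of 0.44 ± 0.13 missed the threshold (limma adjusted p = 0.0557 over all probes).

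Dusp6, which dephosphorylates ERK in the cytoplasm and is a standard readout of ERK output, did not pass. It read 11690, 9109 and 10080 units on the TGC3 arrays 1 to 3 and 10540, 9747 and 13170 on the TG arrays 1 to 3 (probe at chr10:98729985-98730044). After scaling, TGC3 2 and TGC3 3 (3.90 and 4.02) lay just below the lowest TG array (4.09), and TGC3 1 (4.30) lay among the TG arrays. The change was -0.17 ± 0.13 (limma adjusted p = 0.378), with a 95% interval of -0.49 to 0.15. This interval lies wholly below that of Dusp1.

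Dusp10 encodes a phosphatase that prefers JNK and p38 over ERK. Its probe, at chr1:185898608-185898667, read 1026, 1290 and 959 units on the TGC3 arrays 1 to 3 and 1253, 1162 and 1439 on the TG arrays 1 to 3. TGC3 1 and TGC3 3 lay below all TG arrays, and TGC3 2 lay among them. The change was -0.30 ± 0.13 (limma adjusted p = 0.137, 95% interval -0.61 to 0.01). Without TGC3 2 it was -0.43 and passed the threshold (limma adjusted p = 0.0341), and it also passed with arrays centred on their median (-0.48, limma adjusted p = 0.0277) and with array weights (-0.34, limma adjusted p = 0.0402).

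Dusp16, a phosphatase with a preference for JNK, was near the limit of detection. Its brightest probe, at chr6:134687549-134687608, read 21.2, 17.5 and 20.3 units on the TGC3 arrays 1 to 3 and 19.7, 17.7 and 18.7 on the TG arrays 1 to 3. It was well above background on 2 of the 3 TGC3 arrays (not on TGC3 1) and on all 3 TG arrays. The change was 0.01 ± 0.11 (limma adjusted p = 0.962), and its sign turned under other scalings, with -0.24 after quantile normalization. The other 2 Dusp16 probes were well above background on no array, so the level of this gene has little support here.

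Sprouty genes encode membrane-linked inhibitors of RAS and RAF activation, of which Spry1 and Spry2 are members. Spry1 read 79.1, 94.5 and 82.5 units on the TGC3 arrays 1 to 3 and 44.0, 71.2 and 65.5 on the TG arrays 1 to 3 (probe at chr3:37543194-37543253). Every TGC3 array lay above every TG array, with TG 1 the lowest by some distance. The change was 0.47 ± 0.18 with a 95% interval of 0.04 to 0.90, and it did not pass (limma adjusted p = 0.101). It ranged from 0.29 to 0.62 with an array left out and passed in 0 of these 6 fits, and it was 0.29 with median centring.

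Spry2 gave a different answer from each of its probes. The brighter, at chr14:106291385-106291444, read 468, 304 and 447 units on the TGC3 arrays 1 to 3 and 383, 561 and 364 on the TG arrays 1 to 3. There the groups overlapped, TGC3 2 being the lowest array and TG 2 the highest, and the change was -0.16 ± 0.25 (limma adjusted p = 0.664). The dimmer, at chr14:106291901-106291960, read 164, 184 and 144 units on TGC3 and 115, 113 and 118 on TG. Here every TGC3 array lay above every TG array, and the probe rose by 0.44 ± 0.11 (limma adjusted p = 0.0347 over all probes, of which 22.1% were called). The changes of the probes differed by 0.60, with an exact two-sided permutation p of 0.20, where 3 arrays against 3 cannot go below 0.10. The level of Spry2 in TGC3 relative to TG is therefore not settled by these arrays.

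**Figure D2:**
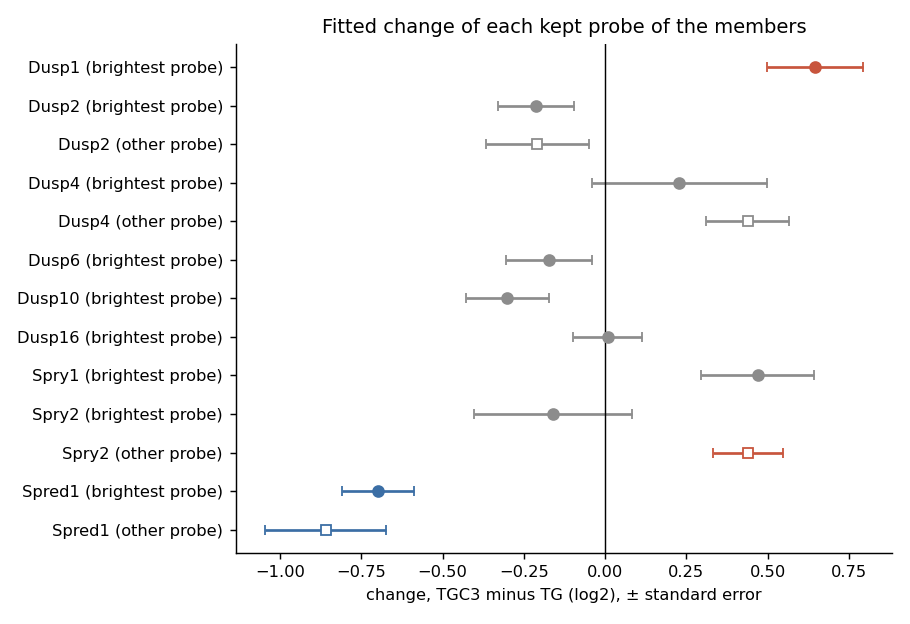
Fitted change (TGC3 minus TG, log2) with its standard error for the 13 kept probes of the 9 members, each probe fitted on its own; filled circles are the brightest probe of a gene and open squares the other, and colour marks an adjusted p under 0.05 over all probes (red higher, blue lower, grey neither). The brightest Spred1 probe lies below 0 in blue, as does the other, which passed the filter only through its TG arrays, and the Spry2 probes lie on opposite sides of 0.

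Spred1, the inhibitor that recruits neurofibromin to RAS, had the largest fitted change among the members here, although Dusp1 changed more with normexp background correction after 7 aberrant spot backgrounds were replaced (repaired normexp below, 0.65 beside -0.56) and without TG 3 (0.75 beside -0.67). Its brightest probe, at chr2:117007850-117007909, read 142, 176 and 140 units on the TGC3 arrays 1 to 3 and 233, 216 and 262 on the TG arrays 1 to 3. Every TGC3 array lay below every TG array. The scaled log2 means were -2.01 ± 0.19 in TGC3 and -1.31 ± 0.09 in TG (SD, n = 3 each). Spred1 fell by 0.70 ± 0.11 (SE, log2), to a level 1.62-fold lower in TGC3, with a limma adjusted p of 0.00881 and a 95% interval of -0.97 to -0.43. With any 1 array left out the change stayed between -0.80 and -0.62 and passed in all 6 fits, with limma adjusted p from 0.00716 to 0.0333.

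The printed Spred1 probes were near or below the limit of detection and add no support to the fall. The one at chr2:116997721-116997780 read 12.3, 18.3 and 12.0 units on the TGC3 arrays 1 to 3 and 26.6, 21.2 and 25.2 on the TG arrays 1 to 3. It was well above background on 1 of 3 TGC3 arrays and on all 3 TG arrays, so it passed the filter through the group where it was brighter, and its fitted change of -0.86 ± 0.19 is a description. With its dim TGC3 arrays set at the dimmest signal still called above background there, this probe was 1.54-fold lower in TGC3. That fold is not a strict minimum, since some brighter signals were not called above background. The one at chr2:117003056-117003115 read 5.37, 12.0 and 11.6 units on TGC3 and 17.5, 16.5 and 20.3 on TG, was well above background on 0 of 6 arrays and was not tested. Spred1 fell in decile 4 by mean signal, where 7.81% of genes were called lower and 23.9% higher.

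The genes closest to Spred1 over the 6 arrays were taken as those with the smallest root mean square difference after each gene was centred on its own mean. Fmnl3, a formin that builds actin filaments, came nearest at 0.052 log2 units, with a change of -0.61 ± 0.12 (limma adjusted p = 0.0169). Rgs10, which speeds the shut-off of G protein alpha subunits, followed at 0.059, with -0.67 ± 0.10 (limma adjusted p = 0.00669). Gsn, the actin-severing protein gelsolin, was at 0.068, with -0.60 ± 0.13 (limma adjusted p = 0.0206). All 3 were chosen for their likeness to a called gene, so their own changes are a description.

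Other MAPK phosphatase, Sprouty and Spred genes numbered 11, all with a probe, of which 8 were tested. In this list 2 were higher in TGC3, 0 were lower and 6 did not pass, beside 16.6% higher and 9.45% lower over all genes. The median change was 0.05. Dusp14, a small phosphatase known to dampen T cell receptor signalling, read -2.76, -2.63 and -2.52 in scaled log2 units on the TGC3 arrays 1 to 3 and -4.41, -4.12 and -3.88 on the TG arrays 1 to 3. The TGC3 arrays all lay more than 1 log2 unit above the TG arrays, and Dusp14 rose by 1.50 ± 0.15 (2.83-fold, limma adjusted p = 0.0025), a call that held in all 6 fits with an array left out. With repaired normexp its change was 0.64, and it still passed (limma adjusted p = 0.00186). Dusp9, an ERK phosphatase, rose by 0.47 ± 0.09 (limma adjusted p = 0.0173). That call was lost without TGC3 1 (0.0564), TG 2 (0.0544) or TG 3 (0.0538), as limma adjusted p, and with repaired normexp (0.16, limma adjusted p = 0.148). Its change was 0.93 by its most variable probe and 0.30 with median centring. Spry3, Spry4 and Spred3 were too dim to test.

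The RAS and ERK cascade, on which several members act, had more genes called lower than higher in TGC3. Of 34 genes of the RAS and ERK cascade 33 were tested, of which 2 were higher, 8 lower and 23 did not pass. Over all genes 16.6% were higher and 9.45% lower. The median change of the list was -0.10. Bright genes leaned lower across the array. In deciles 7 to 10 by mean signal, 11.3% to 13.4% of genes were called lower and 5% to 8.11% higher. How the genes of this list fall among the deciles was not counted. Rps6ka1, a kinase downstream of ERK, fell by 0.50 ± 0.10 (limma adjusted p = 0.0171). Rasa2, a GTPase-activating protein that switches RAS off, fell by 0.48 ± 0.08 (limma adjusted p = 0.0123), and Rras2, a RAS-related GTPase, by 0.46 ± 0.08 (limma adjusted p = 0.00994). Ksr1, a scaffold for RAF, MEK and ERK, rose by 0.58 ± 0.14 (limma adjusted p = 0.030), a call that held in 1 of 6 fits with an array left out. The fall of Rps6ka1 passed in 2 of those 6 fits, and those of Rasa2 and Rras2 passed in all 6. Read by the mean of their probes, Rras2 had a change of -0.17, Rasa2 of -0.45 and Ksr1 of 0.20, and none of the 3 passed (limma adjusted p = 0.182, 0.0564 and 0.283).

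The count of 8 lower genes in that list moved with the settings, to 4 after quantile normalization, 17 with median centring and 2 with the mean of a gene's probes. With the most variable probe of each gene, 4 were higher and 3 lower. With an array left out it was 2 without TGC3 1, TG 2 or TG 3, 3 without TGC3 3 or TG 1, and 5 without TGC3 2. The share called lower over all genes was 9.45%.

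In the JNK and p38 cascades, the targets of Dusp1, Dusp10 and Dusp16, 29 of 30 genes were tested. Of these 1 was higher, 5 were lower and 23 did not pass, beside 16.6% higher and 9.45% lower over all genes. Their median change was -0.14. Gadd45b, an activator of the p38 and JNK branch, rose by 0.74 ± 0.08 (limma adjusted p = 0.00368). Mapk13, the p38 delta kinase, is among the 5, with a mean of -4.79 in TG and -5.89 in TGC3 in scaled log2 units. It was well above background on 0 of 3 TGC3 arrays and on all 3 TG arrays and so passed the filter through TG alone. With its TGC3 arrays set at the lowest signal called above background there, it was 1.51-fold lower, with no test. This fold is not a strict minimum, since some brighter signals were not called above background. The fitted change of Mapk13 was -0.27 with repaired normexp, and the filter on all 6 arrays leaves it out. Mapk9, a JNK, fell by 0.32 ± 0.07 (limma adjusted p = 0.0202) and Map4k4, a kinase upstream of JNK, by 0.30 ± 0.06 (limma adjusted p = 0.0153). Gadd45b passed in all 6 fits with an array left out, Mapk9 and Map4k4 in 3 each. Read by the mean of their probes, Mapk9 (-0.19, limma adjusted p = 0.115) and Map4k4 (-0.16, limma adjusted p = 0.183) did not pass, and Map4k4 was -0.05 by its most variable probe. The count of 5 was 15 with median centring, 3 after quantile normalization, 1 without TGC3 1 or TG 1, and 2 without TGC3 3 or TG 2.

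**Figure D3:**
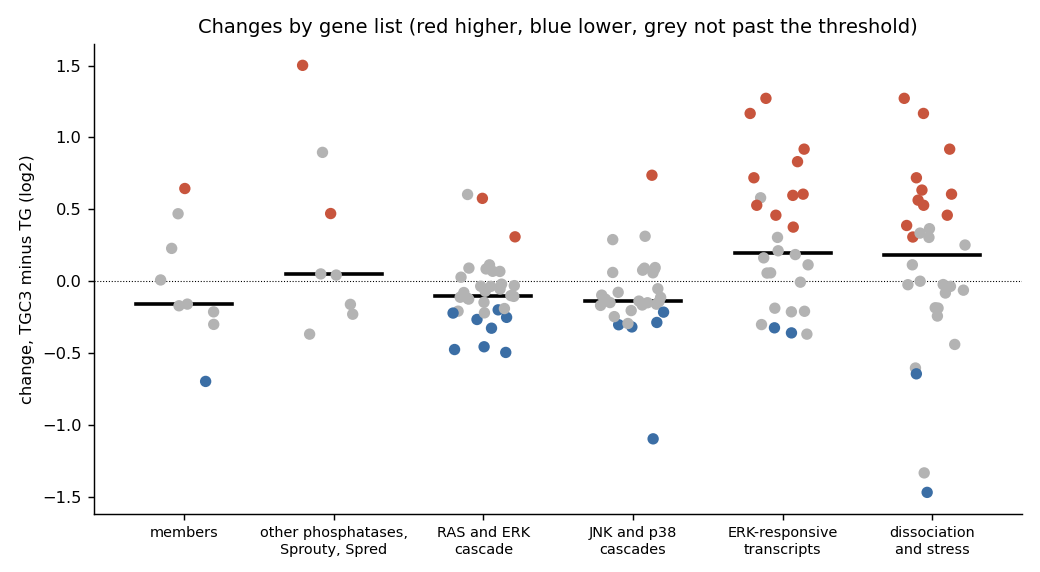
Fitted change (TGC3 minus TG, log2) of every tested gene in the members and in 5 other lists, with a point for each gene (red higher, blue lower, grey not past an adjusted p of 0.05 over all genes) and a line at the list's median. The members centre on -0.16 with 1 red and 1 blue point, and the ERK-responsive and the dissociation and stress lists centre on 0.20 and 0.18 and share 7 of their red points.

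Transcripts that ERK induces were more often higher than lower in TGC3, as Dusp1 was. Of 30 listed, 29 had a probe and 26 were tested, of which 10 were higher, 2 were lower and 14 did not pass. Calls over all genes also leaned higher, at 16.6% higher and 9.45% lower. The median change of the list was 0.20. Egr1, an immediate early transcription factor, rose by 1.27 ± 0.22 (limma adjusted p = 0.0118), and Nr4a1, an orphan nuclear receptor induced by T cell receptor signals, by 0.83 ± 0.15 (limma adjusted p = 0.0129). Both calls held in all 6 fits with an array left out. Ier3, an immediate early survival factor, rose by 1.17 ± 0.31 (limma adjusted p = 0.0382) and Fosb, an AP-1 subunit, by 0.92 ± 0.25 (limma adjusted p = 0.0417), each in 2 of those 6 fits. Ier3 did not pass after quantile normalization (1.05, limma adjusted p = 0.0609), nor Fosb with median centring (0.74, limma adjusted p = 0.0599), and Ier3 was 0.64 with repaired normexp.

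The count of 10 higher genes was 6 without TGC3 1 or TGC3 3, 7 without TG 1 or TG 2, 9 without TG 3 and 10 without TGC3 2. With median centring 6 were higher and 5 lower, with a median change of 0.02. Of the ERK-responsive genes tested, 16 had an entry in the promoter table, and 1 of these (Btg2) held TGACGTCA in the 250 bases upstream. None of the 6 that rose and had an entry did. The element is in 1.55% of all promoters, so its absence from 6 says little.

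Some of these transcripts, Egr1, Fosb and Ier3 among them, are also known to rise when tissue is digested and cells are sorted. A list of 30 such dissociation and stress transcripts was tested in full. It had 11 higher, 2 lower and 17 that did not pass, beside 16.6% higher and 9.45% lower over all genes. Its median change was 0.18. Of its higher genes 7 were also among the 10 higher ERK-responsive ones. Hspa1b, an inducible Hsp70, had the largest called change in it and fell by 1.47 ± 0.36 (limma adjusted p = 0.0301, past the threshold in 2 of 6 fits with an array left out). Its change was -0.77 with repaired normexp and -2.44 by its most variable probe. The other lower gene, Dnajb1, is also a heat shock gene and fell by 0.65 ± 0.14 (limma adjusted p = 0.0208). None of the 11 higher genes is one, so the median joins genes that moved apart. Hspa1a (-1.33, limma adjusted p = 0.0575) did not pass. Of the heat shock genes listed, only Hspb1 had a change above 0 (0.36, limma adjusted p = 0.133). The count of 11 was 4 without TGC3 3, 5 without TG 1, 6 without TGC3 1 or TG 2, 8 without TG 3 and 10 without TGC3 2. With median centring 5 were higher and 7 lower, with a median change of 0.01. The part of handling in the level of Dusp1 was not tested.

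Most of these genes and Dusp1 had the same lowest array within TGC3. TGC3 2 was the lowest of the 3 TGC3 arrays for Dusp1, for 9 of the 10 higher ERK-responsive genes and for 8 of the 11 higher dissociation and stress genes. These counts overlap, since 7 genes were called higher in both lists. The same array was lowest in TGC3 for Dusp2, Dusp6, Dusp16 and Spry2, which were not called, and the share over all genes was not counted. TGC3 2 was also the array with the highest sum of neutrophil markers (4790 units). The part of these markers in the changes of Dusp1 and Spred1 was not tested. Without TGC3 2 the limma adjusted p was 0.0279 for Dusp1 and 0.00716 for Spred1.

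**Figure D4:**
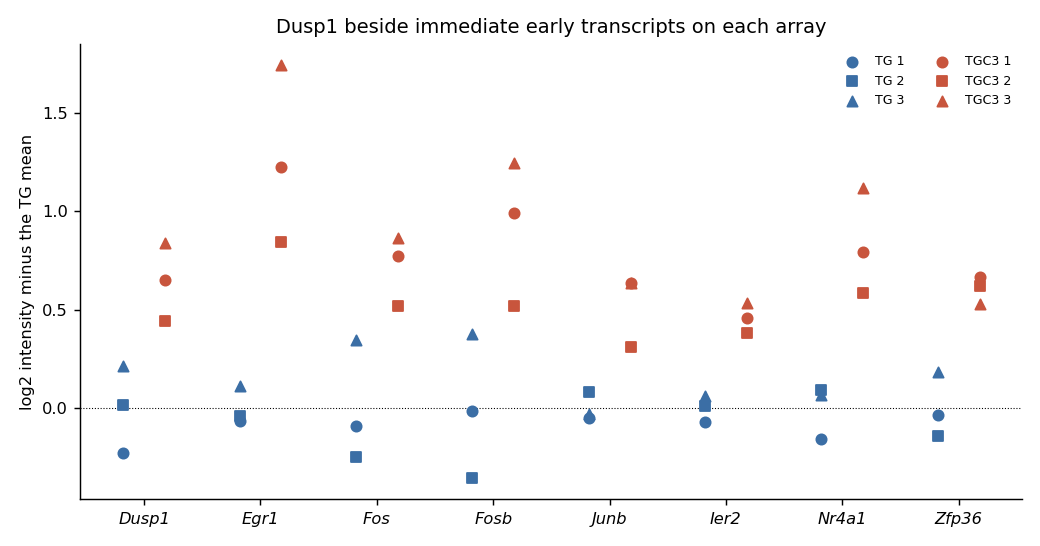
Log2 intensity minus the TG mean, after scaling to each array's 75th percentile, for Dusp1 and 7 immediate early transcripts that were higher in TGC3 (Egr1, Fos, Fosb, Junb, Ier2, Nr4a1 and Zfp36), with TG blue, TGC3 red and a symbol for each replicate. In each of the 8 genes all TGC3 points lie above all TG points, as for 46.7% of all genes tested. The 7 were picked from genes called higher, so their separation is a description. Genes of the same kind that are not shown include Ier3, called higher (1.17), and Egr2 (-0.01), Egr3 (0.16) and Jun (0.30), not called. The TGC3 2 square is the lowest TGC3 point except for Zfp36, where TGC3 3 is lowest.

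Markers of other cells moved in both directions and are given as measured. Over all genes 16.6% were called higher and 9.45% lower. Among the brightest genes, deciles 9 and 10 by mean signal, 13.1% and 11.8% were called lower and 5% and 5.43% higher. The counts below are small beside these shares and were not tested as sets. Of 10 CD8 T cell markers 4 were lower and 0 higher, with a median change of -0.21, and their sum was 481845 to 530121 units in TGC3 and 550374 to 609866 in TG. Of 14 macrophage and monocyte markers 7 were tested and 3 were higher, with sums of 749 to 2006 in TGC3 and 490 to 589 in TG, while Adgre1, Clec4f and Timd4 did not pass the filter. Of 10 B cell markers 5 were tested, with 3 higher and 1 lower and with overlapping sums of 3626 to 3903 in TGC3 and 3709 to 4486 in TG. Among those 3, Ms4a1 was well above background on 0 TG arrays and passed the filter through TGC3 alone, so its call is a description. NK cell markers had 1 of 5 tested lower, with sums of 4155 to 5126 in TGC3 and 5779 to 6475 in TG, and 3 of 7 tested liver endothelial markers were higher and 1 lower, with sums of 850 to 887 and 692 to 764. Dendritic cell markers had 2 of 7 tested higher and 0 lower, and CD4 and regulatory T cell markers 1 of 5 higher, with Foxp3 not kept by the filter. Stellate cell, cholangiocyte and erythroid markers had 2 tested genes each, with 0, 1 and 1 higher, and 1 hepatocyte marker was tested and did not pass. The higher cholangiocyte marker, Spp1, was well above background on 3 TGC3 arrays and 1 TG array, so its call is a description too. The part of other cells in the level of any member was not tested.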

How the data were processed

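Cy3-labelled RNA of the sorted cells was hybridised to 6 Agilent arrays, 3 TGC3 and 3 TG, each with 45018 spots. Feature Extraction read them, in version 10.7.3.1 per the file headers and 10.7.1.1 per the submitters' processing notes. Its processed signal, as deposited, is a background-subtracted intensity, and arrays were not normalized against each other, per the file headers. A matrix of log2 values that the authors deposited has equal column medians (5.57). How it was made is not given in the sources used here, and it served as an alternative.

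Of 43379 non-control spots, those of the same probe were averaged (41174 probes). No probe was saturated (0 spots), and outlier spots removed 11 probes. The log2 signal minus each array's 75th percentile was fitted with limma 3.58.1 (lmFit and eBayes) in R 4.3.3 with the data.table package (version 1.17.8). Tests were two-sided, at p under 0.05 after Benjamini-Hochberg adjustment. Probes were kept where at least 3 of the 6 arrays had them well above background (25103 probes), and the brightest kept probe stood for its gene (16389 genes). Names came from the files, updated through RefSeq by accession (27668 probes), symbol (5589) or synonym (471), and 7446 kept the file's name. A fold given for a dim probe sets its dim arrays at the lowest signal called well above background on that array. Such a fold is not a strict minimum, since some brighter signals were not so called. Sums of markers are intensities after arrays were brought to the same 75th percentile. Tables and figures used Python 3.11.15, pandas 2.3.3, numpy 2.4.6 and matplotlib 3.10.9.

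The members and lists were chosen with earlier results of these data known. The text names all members, up to 4 called genes with the largest change in each pathway list, and the 3 genes closest to the most changed member. Replicate numbers were not taken to pair samples, since their deviations over all genes did not correlate (-0.099 to -0.003). Single genes differed in this. With the number as a block the SE fell from 0.36 to 0.09 for Hspa1b, from 0.25 to 0.08 for Fosb and from 0.31 to 0.10 for Ier3. It rose from 0.14 to 0.16 for Ksr1 and from 0.13 to 0.15 for Dusp10. Alternatives were other scalings, the deposited values, normexp background correction (offset 50) with and without replacing 7 spot backgrounds above 10 times their array's median, other filters, other probe rules, array weights, trend and robust eBayes, a replicate block and leaving out each array. The number of arrays limits the precision.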

Additional observations from a re-analysis of the deposited data

How the results depend on the processing

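For the members, 1 was higher and 1 lower with quantile normalization, cyclic loess, the deposited values, normexp with aberrant backgrounds replaced, a filter on all 6 arrays (8 members tested), the mean or most variable probe and eBayes with trend and robust settings. Higher members numbered 0 with median centring, with normexp without that repair and with no filter, and 2 with every probe on its own (Dusp1 and Spry2). Lower members numbered 3 with median centring, 0 with normexp without the repair and 2 with array weights. With an array left out, higher members ranged from 0 to 1 and lower ones from 1 to 2. The replicate number as a block gave 1 higher and 1 lower member, and 1795 higher and 554 lower genes of all in place of 2720 and 1548. The numbers were not taken to pair samples.

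Normexp without the repair called 0 genes higher and 1 lower of 16389 in limma (507 at an unadjusted p under 0.05, 2 of them members), so the calls of Dusp1 (1.01), Spred1 (-0.82) and the named genes of the other lists were lost there. Its sign was opposite for Dusp14 (-0.12), Dusp16 (-0.94), Dusp2 (0.19), Dusp4 (-0.46), Dusp6 (0.20), Dusp9 (-0.56), Spry1 (-0.47), Ier3 (-0.05), Ksr1 (-0.09) and Map4k4 (0.10). The 7 replaced backgrounds were the one change between it and the repaired fit, which called 2040 genes higher and 1869 lower. Dusp16 was -0.24 with quantile normalization and with the deposited values, -0.17 with median centring, -0.19 with cyclic loess, -0.03 with repaired normexp and -0.07 to 0.09 with an array left out. Dusp4 was -0.06 to 0.39 with an array left out. Spry2 was 0.14 with the mean of its probes and -0.32 to 0.05 with an array left out. Median centring moved the median of all genes by -0.175 and the share of higher among called genes from 63.7% to 27.4%. With no filter that median moved by 0.134 and the share was 78.4%. Signal over background limits Dusp16 and the dimmer Spred1 probes most.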
